A study of Homo sapiens with 18 samples.

Results

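RNA of 42 genes of glucose breakdown and of the response to low oxygen was followed on 18 Illumina bead arrays of KMS11, a human multiple myeloma cell line. The genes were listed by name, and a probe annotated to one of them was kept if 3 or more of the 18 arrays detected it (detection p under 0.01). This left 52 of 63 annotated probes for 36 genes, out of 8947 named genes measured in all. SLC16A1, SLC16A3, CA9 and INSIG2-AS1 had 0 annotated probes, and the probes of PDK1 and EGLN3 were detected on 0 arrays. Each of the 36 genes is represented by its brightest passing probe, and 13 genes had over 1 such probe.

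The arrays form 6 groups of 3 in 2 systems. In the first, KMS11 cells carried an inducible short hairpin RNA designed against the 5' region of MMSET, a histone methyltransferase encoded by NSD2. The hairpin was switched on with doxycycline (+DOX) or left off (no DOX), and no group with doxycycline but without the hairpin was analysed here. In the second, KMS11 cells labelled as knock-outs for MMSET were infected by retrovirus with wild-type MMSET II, with the F1177A mutant (labelled active), with the Y1118A mutant (labelled inactive), or with a vector that carried DSRed alone. All 4 of these groups share the knock-out background. The 3 arrays of a group are labelled triplicates with no word on separate cultures. The p-values therefore measure the spread between arrays, which may be technical. Whether the cells were 1 clone, and how long after doxycycline or infection RNA was taken, are not stated in the labels.

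Glucose enters a cell through transporters of the SLC2A family and is split by the enzymes of glycolysis into pyruvate, which lactate dehydrogenase turns into lactate. When oxygen is short, the transcription factor subunit HIF1A escapes the prolyl hydroxylases (EGLN1) and the ubiquitin ligase subunit VHL that otherwise remove it, and it raises many of these enzymes together with VEGFA, ADM, BNIP3 and other genes. In myeloma cells the glucose transporters and hexokinases are studied because malignant plasma cells take up much glucose. HIF1A itself is controlled mainly as a protein, so its RNA level says little about its activity.

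HIF binds DNA at a short core, ACGTG or GCGTG. The upstream 250 bases of RefSeq promoters (build GRCh38.p14) were searched for both cores on both strands, where the reverse strand reads CACGT or CACGC and the palindrome CACGTG counts on each strand. Of the 36 measured genes 31 matched the table by symbol, with 54 promoters, some of which overlap. A core was found in 33 of these 54 (61.1%), against 43.2% of all 35116 promoters. SLC2A3, VHL, VEGFA, BNIP3L and NDRG1 had no entry. The promoters of the 4 genes with the widest range of group means among those with a single entry are printed 5' to 3' on the strand of the gene, ending at the base before its start site, with the cores in capitals. ADM lies at chr11:10304823-10305072 (plus strand) and holds 1 match, ALDOC at chr17:28576896-28577145 (minus strand) with 5, PDK3 at chrX:24465036-24465285 (plus strand) with 2, and BNIP3 at chr10:131981924-131982173 (minus strand) with 6. A match describes the letters only. These 4 genes did not move together.
ADM: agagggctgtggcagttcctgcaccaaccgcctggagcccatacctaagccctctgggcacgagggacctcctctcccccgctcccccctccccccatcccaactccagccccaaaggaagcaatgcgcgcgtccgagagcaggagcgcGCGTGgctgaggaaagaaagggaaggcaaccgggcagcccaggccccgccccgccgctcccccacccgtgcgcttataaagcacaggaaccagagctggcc
ALDOC: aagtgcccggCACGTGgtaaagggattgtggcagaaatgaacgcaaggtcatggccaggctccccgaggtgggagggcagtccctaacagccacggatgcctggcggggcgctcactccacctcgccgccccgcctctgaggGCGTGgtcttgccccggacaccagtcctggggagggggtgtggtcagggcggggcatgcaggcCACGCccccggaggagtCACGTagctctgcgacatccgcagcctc
PDK3: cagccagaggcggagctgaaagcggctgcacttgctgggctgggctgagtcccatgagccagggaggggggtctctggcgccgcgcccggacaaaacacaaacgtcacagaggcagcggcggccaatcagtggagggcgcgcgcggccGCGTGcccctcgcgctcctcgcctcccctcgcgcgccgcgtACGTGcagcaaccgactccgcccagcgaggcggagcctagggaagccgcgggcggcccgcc
BNIP3: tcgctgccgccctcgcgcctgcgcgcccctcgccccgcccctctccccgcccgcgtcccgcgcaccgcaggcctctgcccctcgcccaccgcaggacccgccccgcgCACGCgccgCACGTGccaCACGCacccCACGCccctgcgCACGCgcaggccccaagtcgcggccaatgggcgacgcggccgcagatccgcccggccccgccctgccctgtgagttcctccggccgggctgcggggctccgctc

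Arrays differed in brightness, and this touches several of the genes. The 95th percentile of deposited intensity ran from 430.3 to 620.7 on the +DOX arrays, against 241.5 to 349.4 on the no DOX arrays. It was 621.9 to 889.5 with MMSET II, 368.5 to 493.1 with F1177A and 746.5 to 775 with Y1118A, against 491.4, 453.5 and 1033 with DSRed. DSRed replicate 3 stood apart from its group (SD of log2 differences 0.392 and 0.352 to the other arrays, against 0.186 between those), as did no DOX replicate 1 (0.433 and 0.471, against 0.29). The single passing NSD2 probe of 4 read 5.94 ± 0.06 (log2, SD, n = 3) in +DOX cells and 6.64 ± 0.15 in no DOX cells, a difference of -0.70 (SE 0.133, limma adjusted p = 0.000408). It showed no called difference among the repletion groups and was still detected with DSRed, and the labels do not state whether the retroviral transcripts hold its target. Of 8 plasma cell markers 7 were measured, with CD38 detected on 0 arrays. Their summed linear level was 24900 to 27000 with +DOX, 24200 to 26200 with no DOX, 16800 to 18900 with MMSET II, 18200 to 18600 with F1177A, 15600 to 16600 with Y1118A and 22300 to 24800 with DSRed. The sum hides SDC1, which averaged 11.12 (log2) with +DOX and 10.58 with no DOX. It averaged 4.92 with MMSET II (detected on 0 of 3 arrays), 4.97 with F1177A (1 of 3), 5.98 with Y1118A and 6.29 with DSRed. The other 6 measured markers were detected on all 18 arrays. None of 5 T cell and 5 fibroblast markers was detected, and the 2 measured of 5 myeloid markers (LYZ and CD68) summed to 118 to 238. Of 5 epithelial markers 2, EPCAM and KRT18, were measured, with a summed linear level of 1200 to 1370 with +DOX, 996 to 1310 with no DOX, 136 to 165 with MMSET II, 96.1 to 101 with F1177A, 62.4 to 65.7 with Y1118A and 45.1 to 49.4 with DSRed. Their part in the results was not tested. In bulk RNA, fewer cells of a kind and less RNA per cell cannot be told apart.

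The 36 genes varied somewhat more between groups than genes at large. The range of the 6 group means had a median of 1.1 (log2) for them and 0.884 for all 8947 named genes, and it exceeded 1 for 19 of 36 (52.8%) against 41.3%. It was widest for the peptide hormone ADM (3.20), the aldolase ALDOC (2.99), the glucose transporter SLC2A3 (2.86), the pyruvate dehydrogenase kinase PDK3 (2.41), the flux regulator PFKFB3 (2.40) and the mitophagy receptor BNIP3 (2.12). The narrowest ranges were those of ERO1A, an oxidase of the endoplasmic reticulum (0.26), PGK1, phosphoglycerate kinase (0.36), and ENO1 and GAPDH (0.39 each). GPI, PFKL, PGK1, ENO2, PKM, LDHB, VHL, MXD1 and ERO1A were called in none of 8 comparisons, with log2 differences between -0.51 and 0.35 at the brightest probe. This does not show a stable level, since GPI and ENO2 had ranges of 1.20 and 1.25 and ENO2 was detected on 0 arrays of the 4 repletion groups. The second probe of PGK1 was called in 4 of the comparisons, at 0.54 in MMSET II against DSRed and -0.69 in F1177A against MMSET II among them. The plot of array values shows the genes with the widest ranges.

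**Figure D1:**
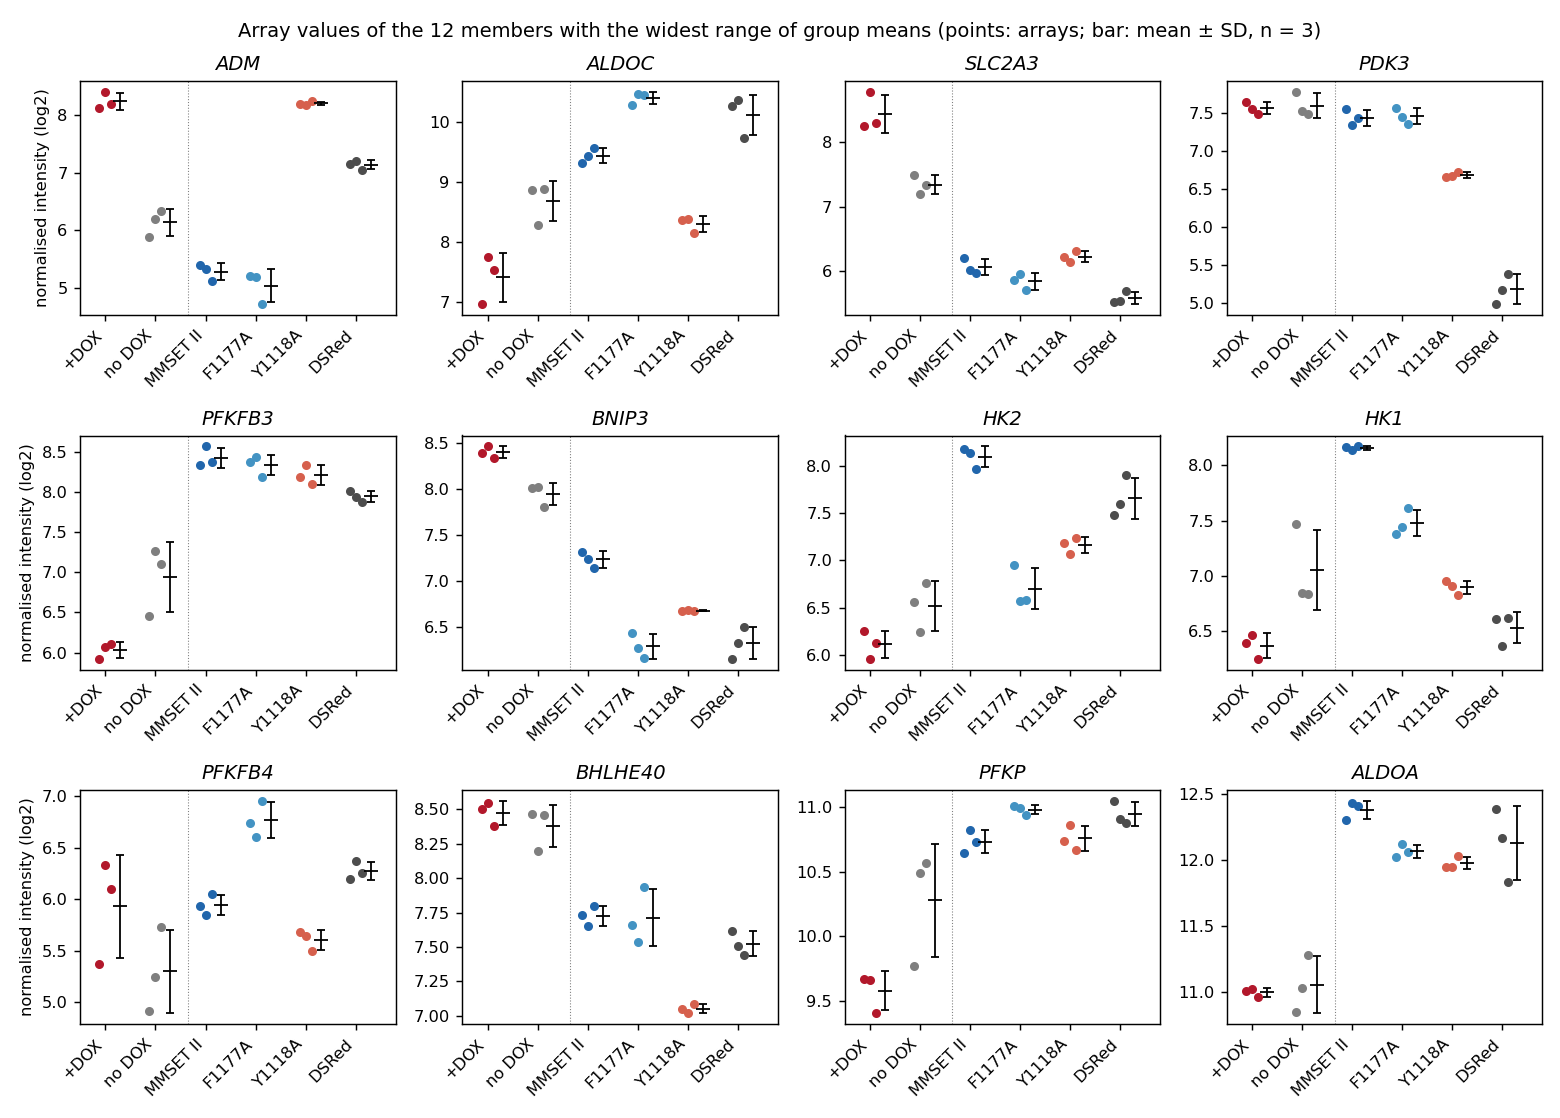
Normalised log2 intensity of 12 genes on every array (y axis), for the hairpin groups left of the dotted line and the repletion groups right of it, with the mean ± SD of 3 arrays beside the points. ADM is high with +DOX, Y1118A and DSRed and low with MMSET II and F1177A, while PDK3 is lowest with DSRed.

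With doxycycline, 9 of the 36 genes rose and 5 fell (limma over 18 arrays, Benjamini-Hochberg adjusted p under 0.05), or 25% and 13.9%. Of all named genes 22.1% were called higher and 20% lower, so the shares lie near the background. The genes did not move as 1 block. Of 9 genes of upper glycolysis 4 fell and 1 rose, while 2 of 3 oxygen-sensing genes and 3 of 11 hypoxia-induced genes rose and none of these 14 was called lower.

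Both measured glucose transporters are members, and SLC2A3, a high-affinity carrier, was the one that rose. It read 8.25, 8.78 and 8.29 (log2) in +DOX cells, against 7.49, 7.20 and 7.33 in no DOX cells. All +DOX arrays lay above all no DOX arrays, with a difference of 1.10 (SE 0.136, adjusted p = 4.68e-06), or 2.14-fold. SLC2A1, the basal glucose carrier, averaged 7.03 ± 0.25 with +DOX and 6.90 ± 0.05 with no DOX, a difference of 0.13 that was not called (adjusted p = 0.403).

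Among the enzymes of upper glycolysis, which turn glucose into triose phosphates, the largest fall was in ALDOC, the brain-type aldolase. ALDOC read 6.96, 7.75 and 7.53 in +DOX cells, against 8.87, 8.29 and 8.89 in no DOX cells. The groups did not overlap, with a difference of -1.27 (SE 0.188, adjusted p = 3.54e-05). PFKP, the platelet-type phosphofructokinase, read 9.67, 9.66 and 9.40 with +DOX, against 9.77, 10.49 and 10.57 with no DOX (-0.70, SE 0.145, adjusted p = 0.000847). Its no DOX replicate 1 lay close to the +DOX arrays, just above them. HK1, the hexokinase that starts glycolysis in most tissues, read 6.39, 6.47 and 6.25 with +DOX, against 7.47, 6.85 and 6.84 with no DOX (-0.68, SE 0.14, adjusted p = 0.000765). Here no DOX replicate 1 was the highest array, and the other arrays of its group still lay above every +DOX array.

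HK2, the inducible hexokinase, averaged 6.11 ± 0.14 with +DOX and 6.52 ± 0.26 with no DOX (-0.41, adjusted p = 0.0305). Its groups overlapped at this probe, and the call ended without no DOX replicate 1 or 3 or +DOX replicate 2 or 3, while its second probe gave -0.72 (adjusted p = 0.00128). TPI1, triose phosphate isomerase, differed by 0.30 (adjusted p = 0.0157). Leaving out +DOX replicate 1 or 2 ended the TPI1 call, as did brightness as a covariate (0.13, adjusted p = 0.325), and its second probe gave 0.02. Of the 8 genes of lower glycolysis and lactate formation only LDHA, the lactate dehydrogenase subunit, was called (0.59, adjusted p = 0.0488). Its groups overlapped. This call ended without no DOX replicate 1 or 3 or +DOX replicate 1 or 2, and with array brightness as a covariate the difference was -0.07.

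PFKFB3 and PFKFB4 make and break fructose 2,6-bisphosphate, the activator of phosphofructokinase, and they were called in opposite directions. PFKFB3 read 5.92, 6.07 and 6.10 in +DOX cells, against 6.45, 7.27 and 7.10 in no DOX cells. All no DOX arrays were higher, with a difference of -0.90 (SE 0.153, adjusted p = 0.000139), and the second probe fell by 0.75. PFKFB4 averaged 5.93 ± 0.50 with +DOX, detected on 3 of 3 arrays, and 5.30 ± 0.41 with no DOX, detected on 1 of 3. Its arrays overlapped, and the call (0.63, adjusted p = 0.0175) ended under median scaling and without no DOX replicate 1 or +DOX replicate 2 or 3.

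Among oxygen-sensing genes, HIF1A read 7.08, 6.95 and 6.70 in +DOX cells, against 6.42, 6.52 and 6.09 in no DOX cells. The groups did not overlap (0.56, SE 0.195, adjusted p = 0.0267), but 2 further HIF1A probes gave 0.16 and -0.03 and were not called. With brightness as a covariate the HIF1A difference was 0.16 (adjusted p = 0.583), and the call also ended without no DOX replicate 3 or +DOX replicate 1 or 2. EGLN1, the main HIF prolyl hydroxylase, read 6.09, 6.19 and 6.13 with +DOX, against 5.40, 5.77 and 5.74 with no DOX (0.49, SE 0.133, adjusted p = 0.00624). Under median scaling EGLN1 was 0.21 and not called (adjusted p = 0.175), and with brightness as a covariate it was 0.44 (adjusted p = 0.051).

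ADM, which encodes the vasodilator adrenomedullin, gave the largest difference. It read 8.12, 8.41 and 8.19 in +DOX cells, against 5.88, 6.19 and 6.34 in no DOX cells. Every +DOX array lay far above every no DOX array, with a difference of 2.10 (SE 0.143, adjusted p = 3.27e-09), or 4.29-fold. BNIP3, a mitochondrial receptor for mitophagy, read 8.40, 8.47 and 8.34 with +DOX, against 8.01, 8.02 and 7.81 with no DOX (0.46, SE 0.111, adjusted p = 0.00299). The BNIP3 groups did not overlap, though with brightness as a covariate the difference was 0.26 (adjusted p = 0.0857). GBE1, the glycogen branching enzyme, read 6.64, 6.61 and 6.51 with +DOX, against 6.11, 6.38 and 6.31 with no DOX (0.32, SE 0.111, adjusted p = 0.0285). That call ended without no DOX replicate 1 or +DOX replicate 1 or 2, with array weights (0.25) and with brightness as a covariate (0.23). It also ended under median scaling (0.19, adjusted p = 0.15) and cyclic loess (0.22). VEGFA, the angiogenic growth factor, averaged 7.54 ± 0.18 with +DOX and 8.05 ± 0.24 with no DOX and was not called (-0.51, adjusted p = 0.124).

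**Figure D2:**
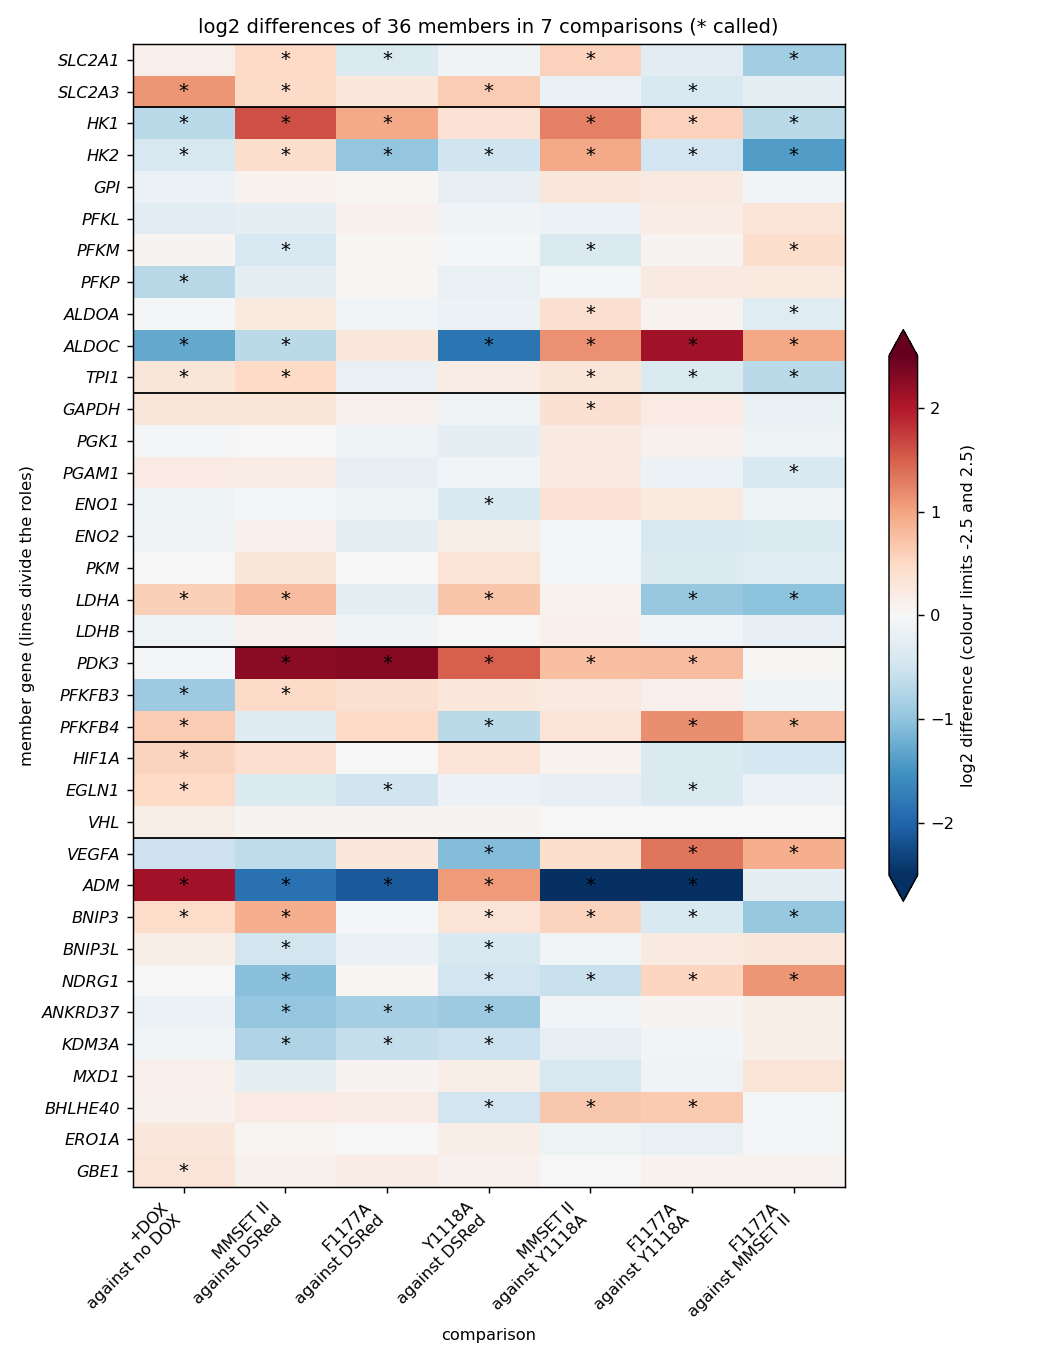
Log2 difference of each of the 36 genes (rows, by role) in 7 comparisons (columns), with the colour scale limited at -2.5 and 2.5 and an asterisk for a call. ADM is called in 6 of the 7 comparisons, and most rows of lower glycolysis stay pale.

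Against DSRed, cells given wild-type MMSET II had 9 of the 36 genes higher (25%) and 7 lower (19.4%), where 17.9% and 14.8% of all named genes were called. Both glucose transporters and 3 of 9 upper glycolysis genes rose, with 2 of those 9 lower, while of 11 hypoxia-induced genes 5 fell and 1 rose.

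PDK3, a kinase that holds pyruvate back from the citric acid cycle, rose most. It read 7.55, 7.34 and 7.43 with MMSET II, against 4.99, 5.18 and 5.39 with DSRed, where the probe was detected on 1 of 3 arrays. The groups were far apart (2.25, SE 0.117, adjusted p = 3.53e-11), and a second PDK3 probe gave 1.34. HK1 read 8.16, 8.14 and 8.17 with MMSET II, against 6.61, 6.37 and 6.62 with DSRed (1.62, SE 0.14, adjusted p = 4.15e-08). The 3 MMSET II arrays were almost equal and lay above the arrays of every other group. BNIP3 read 7.32, 7.24 and 7.14 with MMSET II, against 6.15, 6.32 and 6.50 with DSRed (0.91, SE 0.111, adjusted p = 3.95e-06), again without overlap.

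SLC2A1 read 7.02, 6.75 and 7.02 with MMSET II, against 6.44, 6.35 and 6.52 with DSRed (0.49, SE 0.121, adjusted p = 0.0042). TPI1 read 12.27, 12.13 and 12.10 with MMSET II, against 11.59, 11.56 and 11.87 with DSRed (0.49, SE 0.0933, adjusted p = 0.000473), and its second probe also rose (0.36). Neither gene's groups overlapped. PFKFB3 read 8.34, 8.57 and 8.37 with MMSET II, against 8.01, 7.94 and 7.88 with DSRed (0.48, SE 0.153, adjusted p = 0.0207), but its second probe gave -0.08 and the call ended without DSRed replicate 2 or MMSET II replicate 2. SLC2A3 rose by 0.48, with no call without MMSET II replicate 1. HK2 rose by 0.44 (adjusted p = 0.0258), with 0.09 at the second probe and no call without DSRed replicate 1 or 2 or MMSET II replicate 1 or 2.

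LDHA read 12.74, 12.57 and 12.34 with MMSET II, against 11.24, 11.49 and 12.59 with DSRed. The spread lies in DSRed replicate 3, which overlapped the MMSET II arrays. The difference was 0.78 (adjusted p = 0.0148), with no call without DSRed replicate 1 (0.51) or 2 (0.63) or MMSET II replicate 1 (0.68), and it was 1.18 without DSRed replicate 3.

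ADM led the falls. It read 5.40, 5.32 and 5.11 with MMSET II, where it was detected on 2 of 3 arrays, against 7.16, 7.20 and 7.05 with DSRed (-1.86, SE 0.143, adjusted p = 8.4e-09). NDRG1, a stress gene used as a marker of hypoxia, read 7.92, 7.72 and 7.86 with MMSET II, against 8.88, 8.93 and 8.83 with DSRed (-1.04, SE 0.0946, adjusted p = 7.81e-08). Both genes had the MMSET II arrays below all DSRed arrays.

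ANKRD37, an ankyrin-repeat protein induced by HIF, read 6.42, 6.60 and 6.49 with MMSET II, against 7.30, 7.49 and 7.61 with DSRed (-0.96, SE 0.119, adjusted p = 4.39e-06). KDM3A, a hypoxia-induced demethylase of histone H3, read 7.06, 7.0 and 6.99 with MMSET II, against 7.89, 7.57 and 7.83 with DSRed (-0.75, SE 0.152, adjusted p = 0.000897). In neither gene did an MMSET II array reach the lowest DSRed array. BNIP3L, the close relative of BNIP3, read 7.20, 7.32 and 7.26 with MMSET II, against 7.69, 7.57 and 7.87 with DSRed (-0.45, SE 0.117, adjusted p = 0.0061), with -0.30 and no call at its second probe. BNIP3 and BNIP3L thus differed in direction at the called probes.

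ALDOC read 9.31, 9.44 and 9.56 with MMSET II, against 10.26, 10.36 and 9.74 with DSRed (-0.68, SE 0.188, adjusted p = 0.00908), and the call ended without DSRed replicate 2. PFKM, the muscle-type phosphofructokinase, fell by 0.39 (adjusted p = 0.00666). HIF1A averaged 6.14 ± 0.24 with MMSET II and 5.72 ± 0.37 with DSRed and was not called, nor were EGLN1 and VHL. VEGFA averaged 7.29 ± 0.40 with MMSET II and 7.94 ± 0.78 with DSRed, whose spread came from replicate 3 (-0.64, adjusted p = 0.0676).

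F1177A against the same DSRed arrays gave fewer calls among the 36 genes. There were 2 higher (5.56%) and 6 lower (16.7%), against 12.1% and 8.57% of all named genes. PDK3 rose as far as it did with MMSET II, reading 7.57, 7.45 and 7.36 with F1177A, against 4.99, 5.18 and 5.39 with DSRed (2.27, SE 0.117, adjusted p = 3.93e-11). HK1 read 7.38, 7.44 and 7.61 with F1177A, against 6.61, 6.37 and 6.62 with DSRed (0.94, SE 0.14, adjusted p = 7.57e-05). No array of either group overlapped for these genes.

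ADM read 5.21, 5.19 and 4.71 with F1177A and was detected on none of those 3 arrays, against 7.16, 7.20 and 7.05 with DSRed. It was at least 3.58-fold lower (fitted difference -2.10, SE 0.143, adjusted p = 2.12e-09). For this bound the F1177A arrays were set to the lowest signal each could detect. HK2 read 6.95, 6.57 and 6.58 with F1177A, against 7.48, 7.60 and 7.90 with DSRed (-0.96, SE 0.145, adjusted p = 8.8e-05). Its direction was opposite to that with MMSET II.

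ANKRD37 read 6.68, 6.71 and 6.53 with F1177A, against 7.30, 7.49 and 7.61 with DSRed (-0.83, SE 0.119, adjusted p = 4.96e-05), again with no overlap. KDM3A fell by 0.60, EGLN1 by 0.50 and SLC2A1 by 0.37. The KDM3A and EGLN1 calls ended without F1177A replicate 2, the KDM3A call also with brightness as a covariate (-0.45, adjusted p = 0.0586), and the SLC2A1 call without any 1 of the F1177A arrays or without DSRed replicate 1 or 3. HIF1A was not called at its brightest probe (-0.01), while 1 of its other probes fell by 0.48. None of the 8 lower glycolysis and lactate genes was called (log2 differences from -0.25 to 0.11).

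Y1118A against DSRed gave 5 higher (13.9%) and 10 lower (27.8%) of the 36 genes, where 16% and 11.5% of all named genes were called. Of 11 hypoxia-induced genes 6 fell and 2 rose. PDK3 read 6.66, 6.67 and 6.73 with Y1118A, against 4.99, 5.18 and 5.39 with DSRed (1.5, SE 0.117, adjusted p = 4.21e-08). The groups did not overlap, and the second PDK3 probe gave 1.43.

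ADM read 8.20, 8.18 and 8.24 with Y1118A, against 7.16, 7.20 and 7.05 with DSRed, so the inactive mutant had the higher level (1.07, SE 0.143, adjusted p = 2.67e-05). LDHA rose by 0.70 (adjusted p = 0.0311), with overlapping arrays because of DSRed replicate 3 and no call without DSRed replicate 1 or 2 or any 1 of the Y1118A arrays. It was 1.11 without DSRed replicate 3. SLC2A3 read 6.22, 6.14 and 6.31 with Y1118A, against 5.52, 5.54 and 5.70 with DSRed (0.64, SE 0.136, adjusted p = 0.00191), with every Y1118A array higher. BNIP3 rose by 0.35, with no call without DSRed replicate 1 or 2 or any 1 of the Y1118A arrays.

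ALDOC read 8.36, 8.39 and 8.15 with Y1118A, against 10.26, 10.36 and 9.74 with DSRed (-1.82, SE 0.188, adjusted p = 1.94e-06), the largest fall among these genes in this comparison. VEGFA read 6.85, 6.93 and 6.80 with Y1118A, against 8.42, 8.36 and 7.03 with DSRed (-1.08, SE 0.262, adjusted p = 0.00519). DSRed replicate 3 came close to the Y1118A arrays for VEGFA, and the difference was -1.53 without it.

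ANKRD37 read 6.64, 6.58 and 6.48 with Y1118A, against 7.30, 7.49 and 7.61 with DSRed (-0.90, SE 0.119, adjusted p = 2.32e-05). This fall was called with MMSET II, F1177A and Y1118A alike, but all 3 comparisons use the same DSRed arrays. The other falls were PFKFB4 (-0.67), KDM3A (-0.54), HK2 (-0.50), NDRG1 (-0.48), BHLHE40, a hypoxia-induced repressor of transcription (-0.47), ENO1, the main enolase (-0.39), and BNIP3L (-0.38). Of these, NDRG1 and BHLHE40 were called without each single array. The remaining ones lost the call without at least 1 array each, namely KDM3A without DSRed replicate 1 or Y1118A replicate 1, HK2 without DSRed replicate 3 or Y1118A replicate 2, and PFKFB4 without DSRed replicate 2 or Y1118A replicate 3. ENO1 lost it without DSRed replicate 1 or 2 or Y1118A replicate 1 or 3, and BNIP3L without DSRed replicate 1 or 3 or Y1118A replicate 1 or 3.

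**Figure D3:**
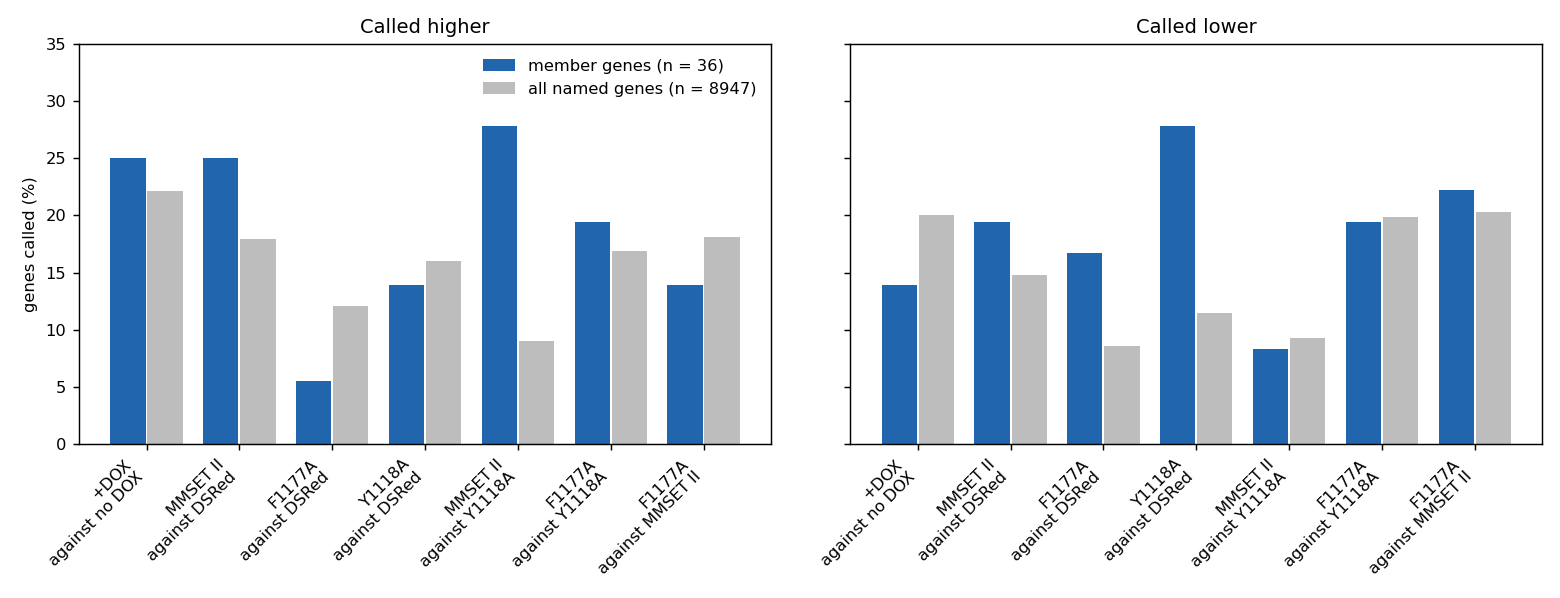
Share of the 36 genes (blue bars) and of all 8947 named genes (grey bars) called higher (left panel) or lower (right panel) in each of 7 comparisons, in percent. The largest excess over the grey bars is in MMSET II against Y1118A (27.8% higher against 9.03%) and in Y1118A against DSRed (27.8% lower against 11.5%).

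MMSET II against Y1118A sets the wild-type against the inactive enzyme, on arrays whose brightness differed by -0.02 (log2). Of the 36 genes 10 were higher (27.8%) and 3 lower (8.33%), against 9.03% and 9.27% of all named genes. Of 9 upper glycolysis genes 5 rose and 1 fell. HK1 read 8.16, 8.14 and 8.17 with MMSET II, against 6.95, 6.91 and 6.83 with Y1118A (1.26, SE 0.14, adjusted p = 3.21e-06). ALDOC read 9.31, 9.44 and 9.56 with MMSET II, against 8.36, 8.39 and 8.15 with Y1118A (1.14, SE 0.188, adjusted p = 0.000291). HK2 read 8.18, 8.14 and 7.97 with MMSET II, against 7.18, 7.07 and 7.24 with Y1118A (0.94, SE 0.145, adjusted p = 0.000147), and its second probe rose by 0.92. All 3 genes were apart on every array.

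Smaller rises were called in PDK3 (0.76), BHLHE40 (0.68), SLC2A1 (0.57), BNIP3 (0.56), ALDOA, the main aldolase (0.40), GAPDH, the enzyme that oxidises triose phosphate (0.39), and TPI1 (0.31). The second PDK3 probe gave -0.09 and was not called. The ALDOA call ended without MMSET II replicate 2 or 3 or Y1118A replicate 1 or 2. The GAPDH call ended without MMSET II replicate 2 or 3 or any 1 of the Y1118A arrays. The TPI1 call ended without MMSET II replicate 1 or 2 or any 1 of the Y1118A arrays.

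ADM read 5.40, 5.32 and 5.11 with MMSET II, against 8.20, 8.18 and 8.24 with Y1118A (-2.93, SE 0.143, adjusted p = 4.41e-11), or 7.6-fold lower. NDRG1 read 7.92, 7.72 and 7.86 with MMSET II, against 8.38, 8.48 and 8.34 with Y1118A (-0.56, SE 0.0946, adjusted p = 0.000328). PFKM read 8.57, 8.48 and 8.63 with MMSET II, against 8.84, 8.89 and 9.03 with Y1118A (-0.36, SE 0.103, adjusted p = 0.0206). No arrays overlapped for these genes, but the PFKM call ended without MMSET II replicate 1 or 2 or Y1118A replicate 2 or 3.

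F1177A against Y1118A, the active against the inactive mutant, gave 7 higher and 7 lower (19.4% each), near the background of 16.9% and 19.9%. Of all calls 45.9% were higher, and 56.4% under median scaling. The F1177A arrays were dimmer (log2 brightness difference -0.89). ALDOC read 10.28, 10.47 and 10.45 with F1177A, against 8.36, 8.39 and 8.15 with Y1118A (2.10, SE 0.188, adjusted p = 1.56e-07). VEGFA read 7.98, 8.33 and 8.29 with F1177A, against 6.85, 6.93 and 6.80 with Y1118A (1.34, SE 0.262, adjusted p = 0.000808). PFKFB4 read 6.74, 6.61 and 6.96 with F1177A, against 5.68, 5.64 and 5.50 with Y1118A (1.17, SE 0.202, adjusted p = 0.000309). All F1177A arrays were higher, and with brightness as a covariate ALDOC and PFKFB4 were still called, while VEGFA was 0.40 (adjusted p = 0.125).

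ADM read 5.21, 5.19 and 4.71 with F1177A, against 8.20, 8.18 and 8.24 with Y1118A, and was at least 7.51-fold lower (adjusted p = 1.97e-11). LDHA read 11.48, 11.51 and 11.58 with F1177A, against 12.44, 12.52 and 12.45 with Y1118A (-0.95, SE 0.231, adjusted p = 0.00429), with -0.17 when brightness was a covariate. HK2 read 6.95, 6.57 and 6.58 with F1177A, against 7.18, 7.07 and 7.24 with Y1118A (-0.47, SE 0.145, adjusted p = 0.0183). The HK2 call ended without F1177A replicate 2 or 3 or Y1118A replicate 1 or 3, and with brightness as a covariate (-0.21, adjusted p = 0.491). The second HK2 probe was not called. The other rises were PDK3 (0.77, not called at its second probe), BHLHE40 (0.66), HK1 (0.58) and NDRG1 (0.53). The other falls were BNIP3 (-0.39), SLC2A3 (-0.38), EGLN1 (-0.37) and TPI1 (-0.36), none of them called with brightness as a covariate. Under median scaling SLC2A3 (-0.22) and EGLN1 (-0.17) were not called either. The BNIP3 call also ended without F1177A replicate 3, the SLC2A3 call without F1177A replicate 1 or 3 or any 1 of the Y1118A arrays, and the EGLN1 call without F1177A replicate 1 or 2 or any 1 of the Y1118A arrays.

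Both active forms can be read side by side, with the Y1118A arrays shared. HK1 and PDK3 were called higher and ADM lower with MMSET II and with F1177A, against DSRed and against Y1118A, although the second PDK3 probe was called in neither comparison with Y1118A. The HK1 values rest on 1 of 4 annotated probes, as the others were detected on 0 arrays. ALDOC and BHLHE40 were called higher than with Y1118A with both forms. Against Y1118A, HK2, NDRG1 and BNIP3 were called in opposite directions, HK2 and BNIP3 higher with MMSET II and lower with F1177A, and NDRG1 lower with MMSET II and higher with F1177A. The HK2 and BNIP3 calls in F1177A against Y1118A ended with brightness as a covariate (-0.21 and -0.16), and the second HK2 probe was higher with both forms, at 0.92 with MMSET II and 0.14, not called, with F1177A.

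F1177A against MMSET II tests that difference directly. Of the 36 genes 5 were higher (13.9%) and 8 lower (22.2%), against 18.1% and 20.3% of all named genes, and the F1177A arrays were dimmer (-0.88). HK2 read 6.95, 6.57 and 6.58 with F1177A, against 8.18, 8.14 and 7.97 with MMSET II (-1.40, SE 0.145, adjusted p = 8.57e-07), with -0.78 at its second probe. LDHA read 11.48, 11.51 and 11.58 with F1177A, against 12.74, 12.57 and 12.34 with MMSET II (-1.02, SE 0.231, adjusted p = 0.00204), with -0.26 and no call when brightness was a covariate. BNIP3 read 6.43, 6.27 and 6.16 with F1177A, against 7.32, 7.24 and 7.14 with MMSET II (-0.94, SE 0.111, adjusted p = 4.11e-06). No arrays overlapped for HK2, LDHA or BNIP3.

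NDRG1 read 8.87, 8.91 and 9.02 with F1177A, against 7.92, 7.72 and 7.86 with MMSET II (1.10, SE 0.0946, adjusted p = 9.33e-08). ALDOC read 10.28, 10.47 and 10.45 with F1177A, against 9.31, 9.44 and 9.56 with MMSET II (0.96, SE 0.188, adjusted p = 0.00063). VEGFA read 7.98, 8.33 and 8.29 with F1177A, against 6.94, 7.20 and 7.74 with MMSET II (0.91, SE 0.262, adjusted p = 0.0105). All F1177A arrays were higher for the 3 genes, but with brightness as a covariate ALDOC was 0.47 (adjusted p = 0.0804) and VEGFA -0.01, and the VEGFA call ended without MMSET II replicate 1.

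SLC2A1 fell by 0.86, HK1 by 0.68, TPI1 by 0.67, PGAM1, a phosphoglycerate mutase, by 0.38 and ALDOA by 0.31. PFKFB4 rose by 0.82 and PFKM by 0.43, neither called with brightness as a covariate. With the replicate number as a block, which the pairing check allows here, ALDOA was not called (adjusted p = 0.0514), and it was not called without any 1 of the 6 arrays. The PGAM1 call ended without MMSET II replicate 2 or F1177A replicate 1 or 3, and PGAM1 and ALDOA each had a second probe at or near 0 (0.00 and -0.02).

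The effect of less MMSET can be set side by side in the 2 systems, which share no arrays, as +DOX minus no DOX and as DSRed minus MMSET II. Less MMSET in the DSRed cells rests on the labels alone. The NSD2 probe showed no called difference in MMSET II against DSRed (-0.03, limma adjusted p = 0.889). Of the 14 genes called in the hairpin cells 9 (64.3%) were among the 16 called in MMSET II against DSRed (56.2% of those). Over all named genes, 1390 were called in both, or 36.9% of the 3763 called in the hairpin cells and 47.4% of the 2932 called in MMSET II against DSRed. With less MMSET, at the brightest probes, 4 of the 9 moved alike (HK1, HK2 and PFKFB3 down, ADM up). The other 5 moved in opposite directions (SLC2A3, ALDOC, TPI1, LDHA and BNIP3). Of the 1390 named genes called in both, 465 (33.5%) moved alike and 925 in opposite directions, against 44.4% alike among the 9. The +DOX arrays were brighter than the no DOX arrays (log2 difference 0.75), but the DSRed arrays were dimmer on average than the MMSET II arrays (0.30 in MMSET II against DSRed). DSRed replicate 3 (1033) was an exception, brighter than every MMSET II array. Mean brightness thus ran in opposite directions in the 2 effects, and its part in these tallies was not tested. With brightness as a covariate the +DOX calls of LDHA (-0.07), TPI1 (0.13) and BNIP3 (0.26) ended, while those of SLC2A3 and ALDOC were kept. For ADM the effects were 2.10 and 1.86, and their difference was 0.24 (SE 0.202, adjusted p = 0.342). For HK2 they were -0.41 and -0.44, with a difference of 0.03 (SE 0.205, adjusted p = 0.915), but the second HK2 probe gave a called difference of -0.62 (adjusted p = 0.0276). The second PFKFB3 probe averaged 6.23 with MMSET II and 6.32 with DSRed and was not called there. At that PFKFB3 probe the difference between the effects was called negative. For HK1 they were -0.68 and -1.62, and here the sizes differed (0.93, SE 0.198, adjusted p = 0.000895).

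The test of the signed difference between both effects, hairpin minus repletion, called 16 of the 36 genes. It was positive for 10 (27.8%) and negative for 6 (16.7%), against 25% and 20.4% of all named genes. The largest were PDK3, with effects of -0.03 and -2.25 (difference 2.22, SE 0.166, adjusted p = 1.06e-08), ALDOC, with -1.27 and 0.68 (-1.95, SE 0.266, adjusted p = 1.14e-05), and SLC2A3, with 1.10 and -0.48 (1.58, SE 0.192, adjusted p = 3.18e-06). BNIP3 had effects of 0.46 and -0.91 (1.36, SE 0.157, adjusted p = 1.6e-06). LDHA also differed by 1.36 (SE 0.327, adjusted p = 0.00243), though by 0.45 with brightness as a covariate (adjusted p = 0.144). The second BNIP3L probe rose with +DOX (0.62, adjusted p = 0.0323) where the first was not called. The hypoxia-induced ANKRD37, NDRG1 and KDM3A had effects between -0.15 and -0.01 in the hairpin cells and of 0.96, 1.04 and 0.75 in the repletion cells. ENO2, the neuronal enolase, was detected on all arrays of the hairpin system.

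**Figure D4:**
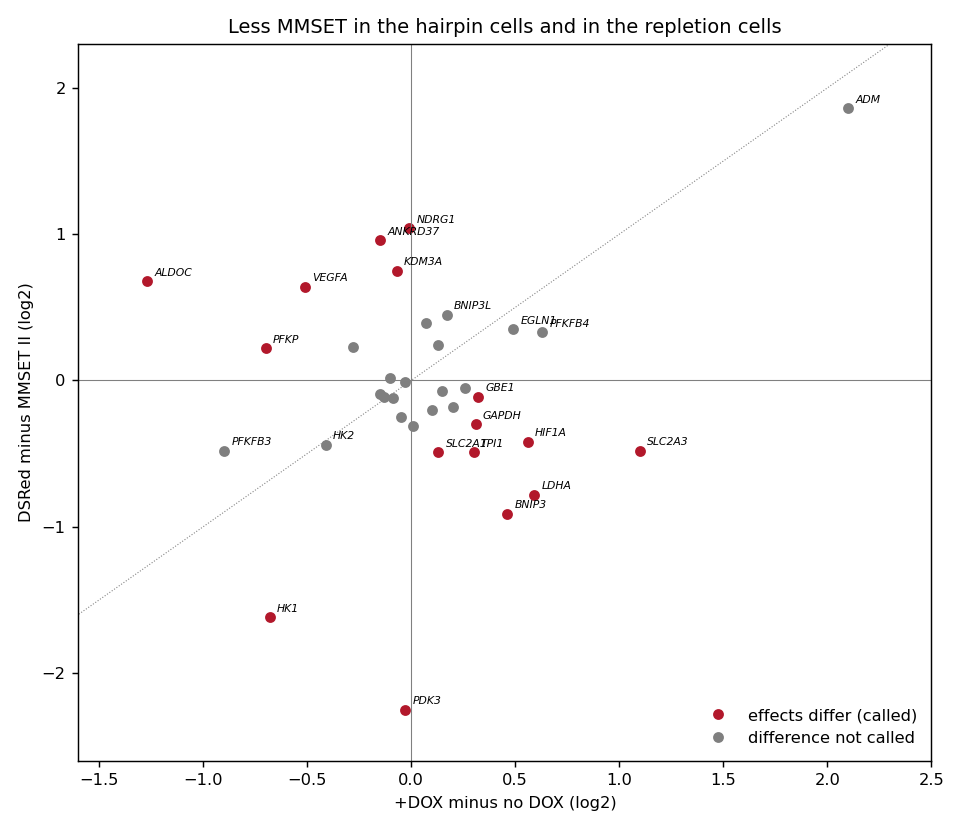
Log2 effect of less MMSET for each of the 36 genes in the hairpin cells (x axis) and in the repletion cells (y axis), in red where the 2 effects differed in the model. The dotted line marks equal effects. In the repletion cells less MMSET, as DSRed minus MMSET II, rests on the labels. ADM lies near the line in the upper right, HK2 near it in the lower left, and ALDOC, SLC2A3 and PDK3 lie far from it.

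LDHA and VEGFA varied with array brightness. The 8 arrays with a 95th percentile of 620.7 or more had LDHA between 12.25 and 12.74, and the other 10 arrays, at 493.1 or less, had 11.14 to 11.89, with no overlap. VEGFA read 6.80 to 7.74 on the 8 brighter arrays and 7.50 to 8.42 on the 10 dimmer ones. Within DSRed, the bright replicate 3 had LDHA at 12.59 and VEGFA at 7.03, where replicates 1 and 2 had 11.24 and 11.49 for LDHA and 8.42 and 8.36 for VEGFA. Brightness and group cannot be told apart where every array of a group is bright, as with Y1118A and MMSET II, or dim, as with no DOX and F1177A.

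**Figure D5:**
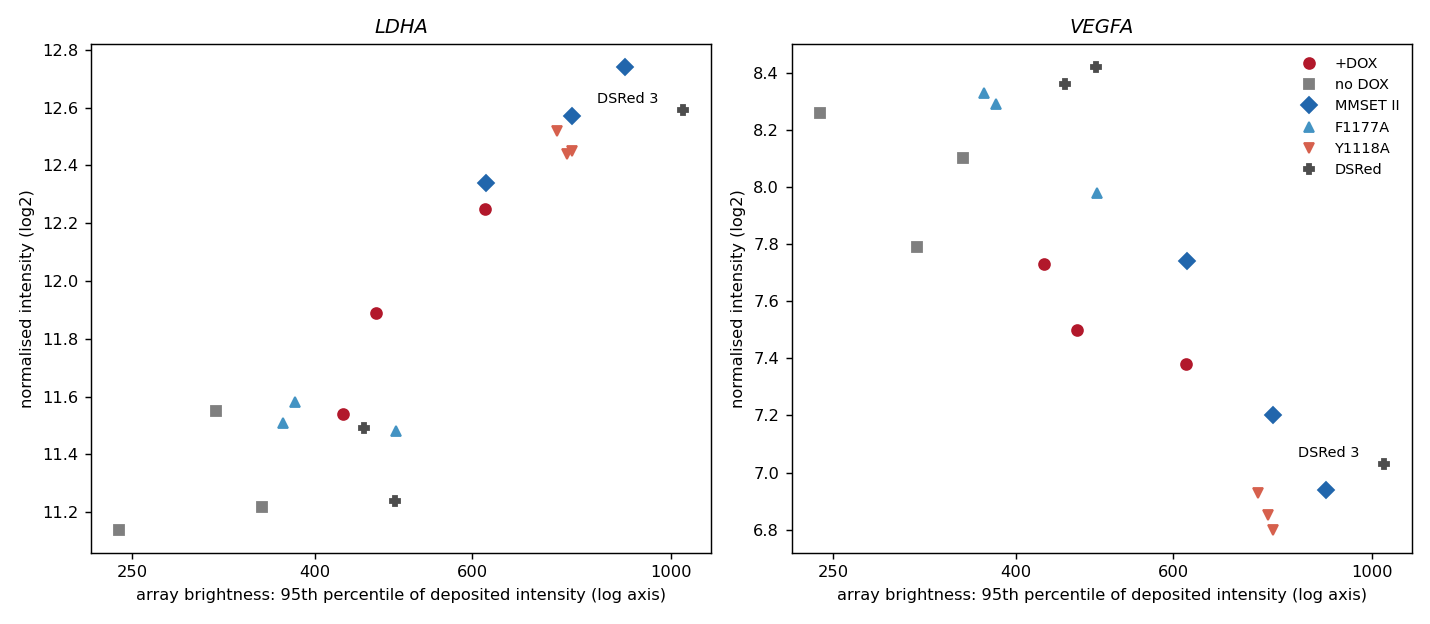
Normalised log2 intensity of LDHA (left) and VEGFA (right) on each of 18 arrays (y axis) against the 95th percentile of deposited intensity (x axis, log scale), with a symbol per group. The brighter arrays sit high for LDHA and low for VEGFA, DSRed replicate 3 included.

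Other genes of these pathways, from lists outside the 42, were counted the same way, against 22.1% of all named genes higher and 20% lower with +DOX, and 17.9% and 14.8% in MMSET II against DSRed. With +DOX, 8 of 12 measured other regulators of the HIF pathway rose and 1 fell (66.7% and 8.33%), with CREBBP, a coactivator of HIF, at 0.95, HIF1AN, the asparaginyl hydroxylase that blocks HIF activity, at 0.79 and the ligase subunit ELOC at 0.64. In MMSET II against DSRed 5 of the 12 rose (41.7%). The +DOX arrays were the brighter ones (log2 difference 0.75). In F1177A against MMSET II, with dimmer F1177A arrays (-0.88), 4 of the 12 were lower and 0 higher (33.3% and 0%, against 20.3% and 18.1% of all named genes). In F1177A against Y1118A (-0.89) 5 were lower and 1 higher (41.7% and 8.33%, against 19.9% and 16.9%). No alternative was run for these lists, and the part of brightness was not tested. Of 26 other glycolysis and pyruvate genes 9 rose and 5 fell with +DOX (34.6% and 19.2%), including TIGAR, which lowers fructose 2,6-bisphosphate (0.84), and the gluconeogenic FBP1 (-0.96). With MMSET II against DSRed 6 of them rose and 2 fell (23.1% and 7.69%), with the mitochondrial pyruvate carrier MPC1 at 0.59 and the muscle enolase ENO3 at -0.90.

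Of 18 other hypoxia targets 4 rose and 4 fell with +DOX (22.2% each, near the background), among them the transferrin receptor TFRC (1.23) and the collagen lysyl hydroxylase PLOD1 (-1.56). In MMSET II against DSRed 7 rose and 3 fell (38.9% and 16.7%). PLOD2, another lysyl hydroxylase, was at least 3.45-fold higher, TFRC rose by 0.91, and the mTOR inhibitor DDIT4 fell by 0.90. In F1177A against DSRed 3 of these targets rose and 2 fell (16.7% and 11.1%, against 12.1% and 8.57% of all named genes). In Y1118A against DSRed 3 rose and 3 fell (16.7% each, against 16% and 11.5%). In these 2 comparisons PLOD2 was at least 3.97-fold and 1.12-fold higher. TXNIP, a glucose-responsive brake on glucose uptake, was at least 1.56-fold lower in MMSET II against DSRed. It was also called lower in Y1118A against DSRed (-0.75), but not called in F1177A against DSRed. The citric acid cycle list had 3 of 14 genes higher and 3 lower with +DOX (21.4% each, near the background), with IDH2, the mitochondrial isocitrate dehydrogenase, at -1.21. With MMSET II against DSRed it had 2 higher and 3 lower (14.3% and 21.4%), with IDH2 at -0.91. Read as effects of less MMSET, which in the DSRed cells rests on the labels, the IDH2 values have opposite signs in the systems. The same holds for TFRC. The medians of all these lists were between -0.28 and 0.34 with +DOX and between -0.57 and 0.22 in MMSET II against DSRed, beside 0.02 and 0.01 for all genes. The -0.28 was that of 6 measured pentose phosphate genes. Of these 1 rose and 3 fell with +DOX (16.7% and 50%, against 22.1% and 20% of all named genes). The -0.57 came from a glucose-sensing list with only 2 measured genes, TXNIP and MLX.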

How the data were processed

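RNA of 18 KMS11 samples was measured on Illumina bead arrays of biotin-labelled cRNA. For each array the authors deposited a linear intensity and a detection p-value per probe, not normalized according to the headers. Of the intensities 31.1% lie below 0, so some background subtraction, not described in the labels, came before deposit. The submitters' processing notes list GenomeStudio 1.5.4. The authors' series matrix, used as an alternative, holds further intensity values of the same arrays with 1 shared distribution (median 3 in each column).

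Groups came from the labels alone. The values were background-corrected with limma 3.58.1 in R 4.3.3 (neqc with detection p-values, offset 16), quantile-normalised and put on the log2 scale here rather than by the authors, where the offset understates differences of dim probes. The table holds 48803 probes, of which 27578 had 1 gene symbol, 13 several and 21212 none in the platform annotation. A detection p under 0.01 on at least 3 arrays left 13336 probes. One limma model with a term per group (12 residual degrees of freedom, intensity trend) gave two-sided tests of 7 comparisons and of the difference between the effects in both systems, each Benjamini-Hochberg adjusted over the 13336 probes. Errors are SE for differences and SD (n = 3) for levels, and the number of arrays limits the precision. Alternatives changed the normalisation, background, filter, probe choice, samples, weights and covariates.

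The genes and lists were chosen with earlier results of these data known, and support nothing by themselves. Array values were given for called genes without overlap, 6 per direction in +DOX against no DOX and MMSET II against DSRed and 3 elsewhere. LDHA and VEGFA in the brightness paragraph, and array values for overlapping LDHA calls, were chosen after their values were seen. Same-numbered arrays deviated together most evenly for F1177A and MMSET II (3 pairs, r from 0.18 to 0.28), so the number was taken as a pairing there by that check from the data alone. The 3 pairs of Y1118A and DSRed were positive too but weaker (0.03 to 0.12), and were not taken as a pairing. On data simulated for +DOX against no DOX over 13336 probes, 53.7% of changes of 1.5-fold, 94% of 2-fold and 100% of 3-fold were recovered, and 5.71% of calls were false. The simulation changed only 67, 67 and 66 probes by these folds, with noise drawn separately for each probe. In the data 3763 of 8947 named genes were called and arrays differed in brightness, so these rates need not hold for the calls above.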

Additional observations from a re-analysis of the deposited data

Results flagged for a closer look

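The difference between the effects of less MMSET in the hairpin cells (+DOX minus no DOX) and in the repletion cells (DSRed minus MMSET II) passed its own test in the model for 16 of the 36 genes, here given on the log2 scale. Less MMSET in the repletion cells rests on the labels, since the NSD2 probe showed no called difference there. The signed difference, hairpin minus repletion, was positive for PDK3 (2.22), SLC2A3 (1.58), LDHA (1.36), BNIP3 (1.36), HIF1A (0.98), HK1 (0.93), TPI1 (0.79), SLC2A1 (0.62), GAPDH (0.61) and GBE1 (0.42). A positive difference need not mean a larger effect in the hairpin cells. PDK3 had effects of -0.03 there and -2.25 in the repletion cells, and HK1 of -0.68 and -1.62. The signed difference was negative for ALDOC (-1.95), VEGFA (-1.16), ANKRD37 (-1.11), NDRG1 (-1.05), PFKP (-0.92) and KDM3A (-0.81). Of these, 11 kept the call under all 23 alternatives. The other 5 were LDHA and HIF1A, lost with brightness as a covariate, GAPDH, lost under median scaling and cyclic loess, VEGFA, lost with brightness as a covariate or without DSRed replicate 1 or 2 or MMSET II replicate 1, and GBE1, lost under 12 alternatives or left-out arrays. For HIF1A and for GAPDH the difference was called at only 1 of 3 probes. The other GAPDH probes gave 0.14 and 0.38, not called.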

How the results depend on the processing

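Of 109 called differences of the 36 genes, 63 kept direction and call under every alternative, arrays left out included. LDHA in +DOX against no DOX (-0.07) and VEGFA in F1177A against MMSET II (-0.01) reversed with brightness as a covariate, and 23 further calls were lost there. Without a filter 21 calls were lost, 10 each under median scaling and with the compared groups alone, and 7 under cyclic loess. Counts of called genes moved by over 1.5 times with array weights in MMSET II against DSRed (28, against 16), F1177A against DSRed (13, against 8), Y1118A against DSRed (29, against 15), MMSET II against Y1118A (20, against 13), F1177A against Y1118A (22, against 14) and F1177A against MMSET II (22, against 13). The array weights did not fully converge, and DSRed replicate 2 was given a weight of 5.91, against 0.194 for DSRed replicate 3. Fitting only the compared groups gave 22 in F1177A against Y1118A and 21 in F1177A against MMSET II, and brightness as a covariate 7 in F1177A against Y1118A. Leaving out 1 array gave 8 to 15 called genes in +DOX against no DOX (8 without +DOX replicate 2, against 14), 12 to 19 in MMSET II against DSRed, 5 to 8 in F1177A against DSRed (5 without F1177A replicate 2), 10 to 19 in Y1118A against DSRed, 9 to 11 in MMSET II against Y1118A, 11 to 12 in both F1177A comparisons with MMSET II and Y1118A, and 14 to 18 for the difference between systems. These are tests with fewer arrays.

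Over all named genes, calls also moved by over 1.5 times with array weights (5606 against 2932, 3642 against 1846, 5933 against 2463, 3702 against 1637 and 5214 against 3293, in the order above without the last), with the compared groups alone (2313 against 3763 for +DOX, 3301 for MMSET II against Y1118A, 5005 for F1177A against Y1118A), with brightness as a covariate (1075 for F1177A against Y1118A, 2064 against 3440 for F1177A against MMSET II), with no filter (1230 and 1621 for F1177A and Y1118A against DSRed) and, for Y1118A against DSRed, without DSRed replicate 1 (1532) or 2 (1547) or Y1118A replicate 3 (1629). Under median scaling the majority direction turned in F1177A against Y1118A (56.4% of calls higher, against 45.9%), +DOX against no DOX (44.9%, against 52.5%), MMSET II against Y1118A (56.9%, against 49.4%), F1177A against MMSET II (51.6%, against 47.2%) and the difference between systems (49.9%, against 55%). The cause was not tested. With the replicate number as a block, 13 genes were called in F1177A against MMSET II, where ALDOA lost its call, and 13 in +DOX against no DOX, where LDHA did (adjusted p = 0.0651); no other call ended. In the other comparisons same-numbered arrays correlated from -0.59 to 0.34, and the number was not taken as a pairing there. In Y1118A against DSRed each array did correlate best with its own number, though weakly (0.03 to 0.12). The check cannot show that the numbers mean nothing. The slide as a block was not run, since the headers name no slide.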
